A study of Mus musculus with 3 samples.

Results

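The genes described here encode the proteins of the mitochondrial ribosome. They were taken by symbol, as all genes named Mrpl or Mrps with a number and with at least 1 annotated protein-coding transcript. This gave 78 genes out of 55450 in the tables, 49 with the large subunit symbol Mrpl and 29 with the small subunit symbol Mrps. A further 5 symbols of the same form (Mrpl23-ps1, Mrpl48-ps, Mrps36-ps1, Mrps36-ps2 and Mrps36-ps3) have no protein-coding transcript and were not counted. RNA was measured in 3 libraries of bone-marrow-derived macrophages from C57BL/6J mice, numbered replicates 1 to 3. All of the cells received 100 ng/ml lipid A for 12 h, a washout of 12 h, and 100 ng/ml lipid A once more for 90 min. Lipid A, the membrane anchor of bacterial lipopolysaccharide, is sensed by Toll-like receptor 4. RNA of the chromatin fraction was depleted of ribosomal RNA and sequenced as total RNA, from 1 µg in replicate 1, 250 ng in replicate 2 and 500 ng in replicate 3. Separate cultures or animals are not named for the replicates, so the spread between libraries may be partly technical. Untreated or singly treated cells were not analysed here, so the values are levels in 1 state and carry no change with treatment.

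Mitochondria keep a small genome, and the messenger RNAs it encodes are translated by a ribosome of their own. The ribosomal RNAs of this ribosome are made inside the organelle, while its proteins are encoded in the nucleus, made in the cytosol and imported. Some of them descend from bacterial ribosomal proteins and others have no counterpart in bacteria. The products of mitochondrial translation are subunits of the respiratory chain and of ATP synthase, so the supply of these proteins bears on oxidative metabolism, which macrophages adjust when they meet bacterial products. RNA bound to chromatin is rich in transcripts that are still being made or spliced, and its levels need not follow those of mature messenger RNA.

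Sequencing depth, as the total of expected counts, was 12671700 in replicate 1, 21747001 in replicate 2 and 16915406 in replicate 3. The 78 genes held 6040, 10489 and 8763 of these counts, or 0.0483%, 0.0484% and 0.0520% of the counts of annotated genes. Across these genes the median count was 36.0 in the lowest library and 81.5 in the highest, and 10 of them had under 10 counts in at least 1 library. The macrophage markers were present, with 18 of 20 reaching 1 TPM in all 3 libraries and Adgre1 the highest at 422 ± 65.5 TPM (SD, n = 3). In the gene table, none of 8 neutrophil, 6 B-cell or 7 fibroblast markers reached this level, and of 8 T-cell markers only Cd4 did, at 1.81 ± 0.206 TPM. Cd3d, Cd3e, Pax5 and S100a8 were listed at 0. In the read-based transcript table Cd3e, Pax5 and S100a8 averaged under 0.1 TPM, but Cd3d had 16.3 ± 2.04 TPM, Cd8a 2.00 ± 0.265 TPM, Col1a1 1.36 ± 0.0419 TPM, Mpo 1.21 ± 0.174 TPM and Ms4a1 1.01 ± 0.229 TPM. In a bulk sample, fewer cells of a type and less RNA per cell cannot be told apart.

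Most mitochondrial ribosomal protein genes were detected on chromatin, and nearly all at low levels. TPM is a length-corrected abundance relative to all transcripts of a library, and a gene is called detected where it reached 1 TPM in all 3 libraries. This held for 69 of the 78 genes (88.5%), against 41.2% of all protein-coding genes. The 9 others were Mrpl35, Mrpl36, Mrpl41, Mrps6, Mrps16, Mrps27, Mrps28, Mrps34 and Mrps36. A level of 10 TPM in all 3 libraries was reached by 9 of 78 genes (11.5%), against 19.3% of all protein-coding genes. Among detected genes alone, the same 9 made up 13.0% of 69, against 46.7% of 9025 detected protein-coding genes. The median over the 78 genes was 3.85, 3.80 and 4.29 TPM in replicates 1, 2 and 3, a mean of 3.98 ± 0.270 TPM (SD, n = 3). Detected protein-coding genes had a median of 11.0 ± 0.432 TPM, and all protein-coding genes 0.363 TPM. The mitochondrial ribosomal protein genes were thus more often detected than protein-coding genes at large, and seldom high when detected.

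Levels of single genes spanned 44.8-fold, from 0.917 to 41.1 TPM as means over libraries. Of the 78 genes, 4 lay over 20 TPM, 9 between 10 and 20, 16 between 5 and 10, 46 between 1 and 5, and 3 under 1. The 4 highest genes held 24.3% of the summed TPM and the 10 highest held 40.1%. The summed level was 427, 476 and 531 TPM in replicates 1, 2 and 3. Relative to protein-coding genes alone these sums were 0.125%, 0.174% and 0.181% of TPM, so replicate 1 lay below the other two. Protein-coding genes held 34.1%, 27.3% and 29.3% of all TPM in the same libraries.

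**Figure D1:**
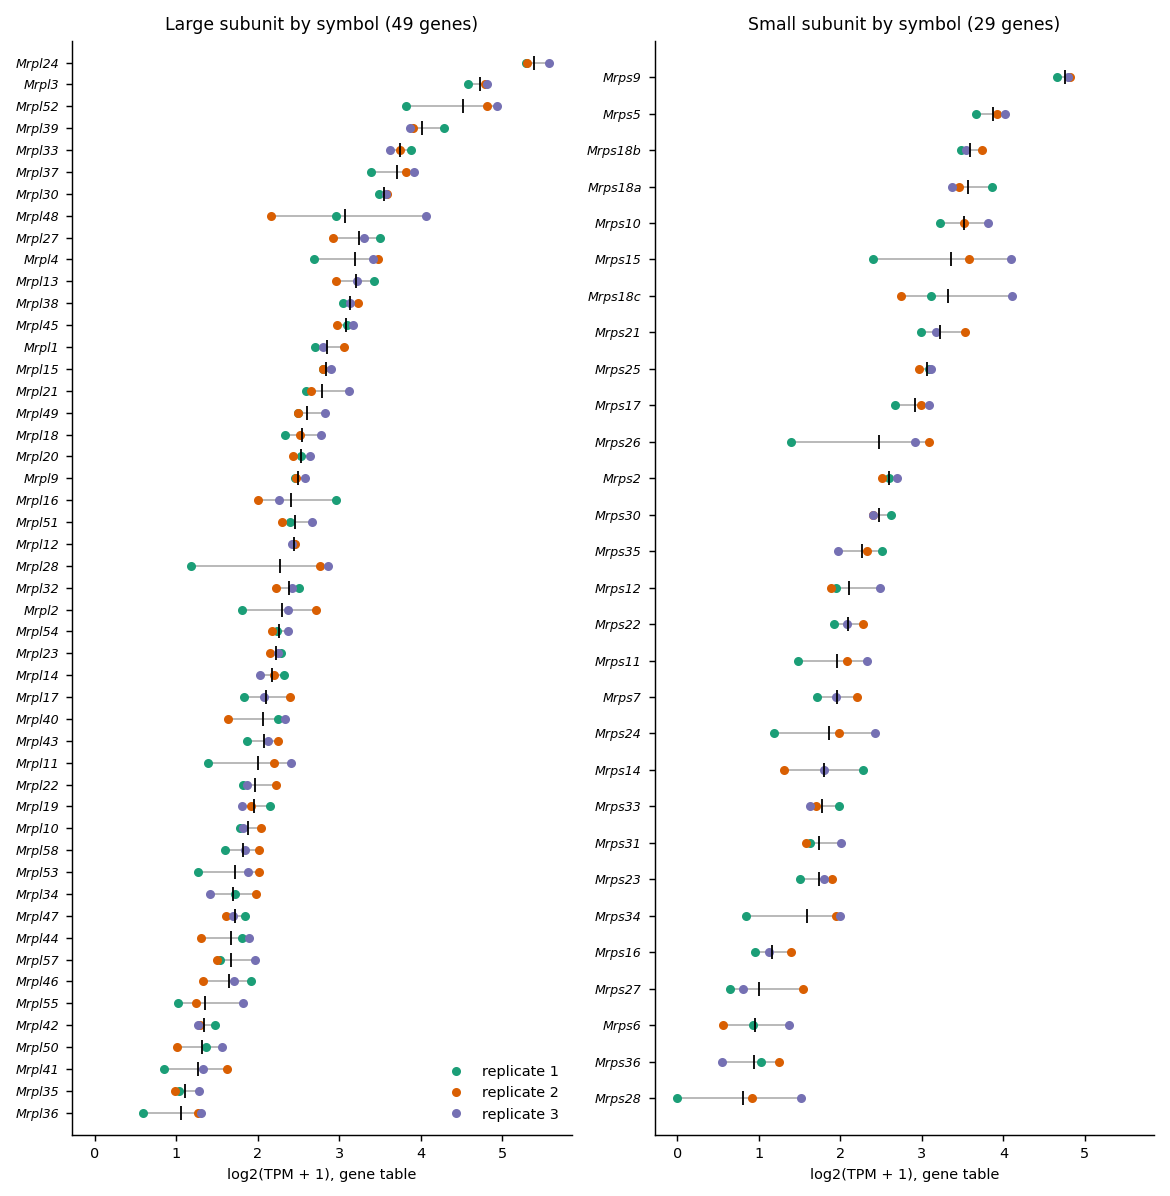
Level of each of the 78 genes as log2(TPM + 1) in replicates 1 to 3 (coloured points), with the range over libraries (grey line) and the mean (black tick), ordered by mean TPM within the large and small subunit by symbol. A few genes such as Mrpl24, Mrps9, Mrpl3 and Mrpl52 stand above a long shoulder of genes between 1 and 5 TPM, and Mrps26, Mrps15, Mrpl28 and Mrpl52 have their lowest point in replicate 1.

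In the large subunit, Mrpl24 was the highest gene of the gene table, with 38.0, 38.6 and 46.6 TPM in replicates 1, 2 and 3 (41.1 ± 4.83, SD, n = 3). In the read-based table Mrpl48 and Mrpl20 were higher, at 71.4 and 58.8 TPM, against 38.3 TPM for Mrpl24. Mrpl24 overlaps Rrnad1 on the other strand (13.9 ± 1.71 TPM), and whether reads of Rrnad1 bear on its level was not tested. Mrpl24 (ENSMUSG00000019710.13, chr3:87919506-87923672, plus strand, mm10) encodes a homologue of a bacterial large subunit protein that binds ribosomal RNA early in assembly. Mrpl3, whose bacterial homologue reaches toward the peptidyl transferase centre, followed with 23.0, 26.6 and 27.0 TPM. Its range did not overlap that of Mrpl24. Mrpl52, a protein that the bacterial ribosome lacks, had 13.1, 27.1 and 29.5 TPM, with replicate 1 well under the others. In replicates 2 and 3 it was slightly above Mrpl3, and in replicate 1 below it. Mrpl39 (18.5, 14.0 and 13.6 TPM), Mrpl33 (13.7, 12.4 and 11.3 TPM) and Mrpl37 (9.52, 13.1 and 14.1 TPM) came next. These 3 genes overlapped in range, so their order is not resolved.

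At the lower end of the large subunit, Mrpl36 had 0.510, 1.41 and 1.48 TPM from 4, 17 and 15 counts. Mrpl35 had 1.05, 0.990 and 1.44 TPM, and Mrpl41 had 0.810, 2.08 and 1.52 TPM. Mrpl36 and Mrpl35 are homologues of small bacterial proteins, and Mrpl41 has no bacterial counterpart. Mrpl50 (1.52 ± 0.474 TPM), Mrpl42 (1.55 ± 0.212 TPM) and Mrpl55 (1.64 ± 0.781 TPM) lay just above them. All 6 ranges overlapped, and their order was not resolved at these counts. In the read-based table Mrpl35, Mrpl41 and Mrpl42 had 8.63, 7.28 and 8.96 TPM, above the median of 6.54 TPM over the 78 genes. Mrpl36, Mrpl50 and Mrpl55 had 1.44, 1.34 and 2.89 TPM there, below it.

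Mrpl12 encodes the stalk protein that recruits translation factors to the large subunit. It had 4.46, 4.51 and 4.37 TPM, a spread of 0.0709 TPM, which was the smallest SD on the log2(TPM + 1) scale among these genes at 0.02. These levels came from 47, 83 and 61 counts. In the read-based table Mrpl12 had 4.42, 5.40 and 5.86 TPM, so such close values were not seen there. Mrpl58 encodes a peptidyl-tRNA hydrolase that is built into the large subunit and releases stalled chains. It had 2.02, 3.05 and 2.58 TPM (2.55 ± 0.516), below Mrpl12 in every library.

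In the small subunit, Mrps9 (ENSMUSG00000060679.14, chr1:42851233-42905683, plus strand) was the highest gene, with 24.2, 27.2 and 26.7 TPM. The protein is a homologue of a bacterial protein of the small subunit head. Mrps5, whose bacterial homologue lies at the messenger RNA entry, had 11.7, 14.1 and 15.2 TPM, under Mrps9 in each library. After Mrps18b and Mrps18a, described next, came Mrps10 with 8.33, 10.4 and 13.0 TPM, and Mrps15 with 4.27, 10.9 and 16.0 TPM. Mrps15 varied most of the high small subunit genes, and its counts were 32, 117 and 94.

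The mouse has 3 paralogues of bacterial S18, and they differ in where they sit. Mrps18b and Mrps18c are proteins of the small subunit, while Mrps18a sits in the large subunit despite its symbol. Mrps18b had 10.2, 12.3 and 10.6 TPM, Mrps18a had 13.5 TPM in replicate 1 and less in the others, down to 9.35 TPM, and Mrps18c had 7.61, 5.70 and 16.2 TPM. The means were 11.0, 10.9 and 9.85 TPM, and the 3 ranges overlapped, so no order among the paralogues stood beyond the spread between libraries. Mrps30, which also sits in the large subunit, had 5.17, 4.27 and 4.27 TPM and lay under Mrps18a and Mrps18b in each library.

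Mrps28 was the lowest gene of all, with no count in replicate 1 and 0.880 and 1.87 TPM in replicates 2 and 3. A count of 0 in replicate 1 allows up to 3 counts, or 0.478 TPM for this gene, in counting error only, so its level there was below that of replicate 3. Mrps36 had 1.04, 1.38 and 0.460 TPM from 5, 9 and 3 counts. Its product is now known as a component of the alpha-ketoglutarate dehydrogenase complex rather than of the ribosome. Mrps6 had 0.910, 0.480 and 1.59 TPM and Mrps27, a protein with RNA-binding repeats, had 0.560, 1.92 and 0.750 TPM. Mrps16 (0.940, 1.62 and 1.18 TPM) and Mrps34 (0.80, 2.85 and 2.99 TPM) completed the lowest 6. Apart from Mrps34, with 2.85 and 2.99 TPM in replicates 2 and 3, no value of these 6 genes reached 2 TPM.

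In the gene table the medians of the large and small subunit did not differ beyond the spread between libraries. The read-based table, described further on, put the large subunit higher. The median was 4.02, 3.76 and 4.32 TPM over the 49 Mrpl genes and 2.95, 3.85 and 4.27 TPM over the 29 Mrps genes. As a difference of medians of log2(TPM + 1), the large subunit was 0.35 higher in replicate 1, 0.03 lower in replicate 2 (-0.03) and 0.01 higher in replicate 3, a mean of 0.11 ± 0.20 (SD, n = 3). The mean rests on replicate 1, and without that library it was -0.01. In the read-based transcript table the difference of medians was 0.26 ± 0.06. In the gene table the difference of means over genes was 0.12 ± 0.10. Both were positive in 3 of 3 libraries. With 1 condition and 3 libraries an exact sign-flip test cannot go below p = 0.25, so differences between gene lists are given by their size, their SD and the libraries that show them. Moving Mrps30 and Mrps18a to the large subunit and leaving out Mrps36, a choice made after seeing the data, gave 0.16 ± 0.19. That difference of medians was positive in 3 of 3 libraries and largest in replicate 1 (0.37, 0.06 and 0.04).

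Genes with a bacterial homologue lay above those without in all 3 libraries. The 45 genes listed as homologues had medians of 4.49, 4.68 and 5.22 TPM, and the 33 mitochondria-specific genes 2.66, 3.05 and 2.99 TPM. The difference of medians of log2(TPM + 1) was 0.58, 0.49 and 0.64 (0.57 ± 0.08, SD, n = 3). Mrpl47, Mrpl55 and Mrps28 can also be counted as homologues, and with them moved, a choice made after seeing the data, the difference was 0.46 ± 0.07 and was again positive in 3 of 3 libraries. As listed, both classes ran over nearly the whole range. Homologues ran from Mrps6 at 0.993 TPM to Mrpl24. The rest ran from Mrps28, one of the genes that can be moved, to Mrpl52 at 23.2 TPM. Of the 6 highest large subunit genes, Mrpl52, Mrpl39 and Mrpl37 are mitochondria-specific.

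Cytosolic ribosomal protein genes, which serve the ribosome of the cytoplasm, lay well above their mitochondrial counterparts. Their 84 genes had a median of 16.2, 21.1 and 22.6 TPM, and 80 were detected. Rpl10 was the highest at 103 ± 7.67 TPM, and Mrpl24 reached 41.1 TPM. The mitochondrial genes were lower by 1.82, 2.20 and 2.16 in replicates 1, 2 and 3 as a difference of medians of log2(TPM + 1), a mean of -2.06 ± 0.21 (SD, n = 3). The difference was -1.43 on counts scaled with TMM factors, which have no length correction. Its direction was the same in each library and under each alternative run.

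**Figure D2:**
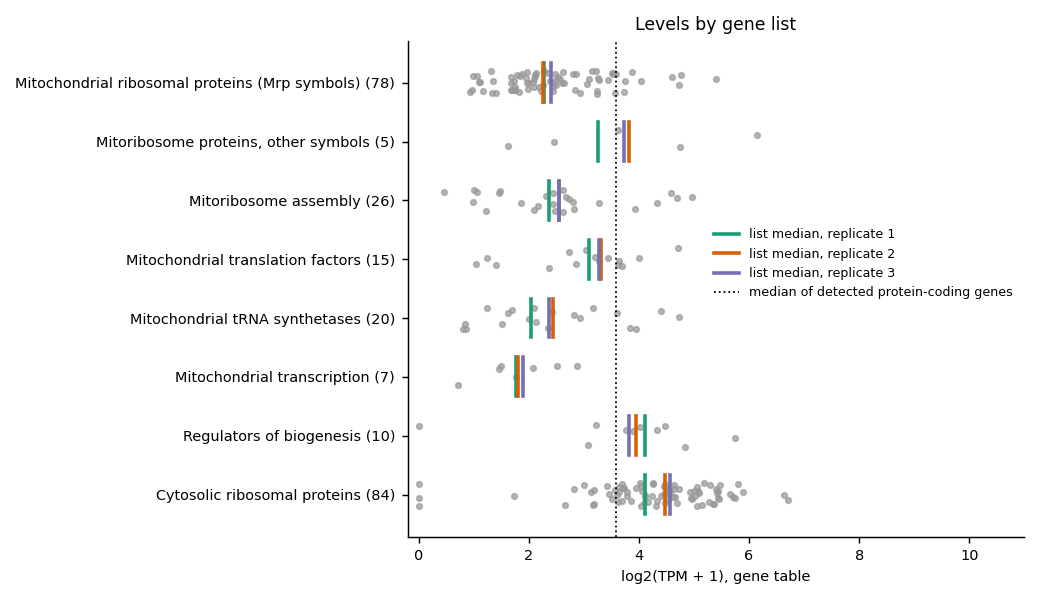
Mean level of each gene as log2(TPM + 1) (grey points) in the mitochondrial ribosomal protein genes, 6 lists of related genes and the cytosolic ribosomal protein genes, with the median of each list in replicates 1 to 3 (coloured bars) and the median of detected protein-coding genes (dotted line). The medians of the mitochondrial ribosomal protein genes (mean 3.98 TPM) lie left of the dotted line at 11.0 TPM, and those of the cytosolic ribosomal protein genes lie right of it in each library.

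The other genes of mitochondrial translation were detected at similar or somewhat higher levels. These lists were written with earlier results of these data known, and they are described by counts and medians only. Of 5 mitoribosome proteins with other symbols, all were detected, with a median of 11.3 ± 2.43 TPM. Dap3, a GTP-binding protein of the small subunit that is also linked to cell death, had 64.4, 66.5 and 76.9 TPM, above every Mrpl and Mrps gene in each library of the gene table. Ptcd3, a pentatricopeptide protein of the small subunit, had 25.7 ± 1.60 TPM, Chchd1 11.3 ± 2.43 TPM and Gadd45gip1, the lowest, 2.07 ± 0.406 TPM. In the read-based table Dap3 had 70.9 ± 6.30 TPM, level with Mrpl48 at 71.4 ± 6.30 TPM.

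Assembly factors had 21 of 26 genes detected and a median of 4.59 ± 0.394 TPM. The RNA helicase Dhx30 led at 30.2 ± 4.45 TPM, followed by Malsu1, which keeps the subunits apart during assembly, at 24.8 ± 2.85 TPM, and Mterf3 at 23.0 ± 2.22 TPM. Mettl15, a methyltransferase for the small ribosomal RNA, was lowest at 0.370 ± 0.178 TPM. Translation factors had 12 of 15 genes detected and a median of 8.37 ± 0.781 TPM. Among them the recycling factor Gfm2 had 25.2 ± 1.26 TPM, the membrane insertase Oxa1l 15.0 ± 1.82 TPM and the initiation factor Mtif2 11.9 ± 1.81 TPM, while the release factor Mtrf1 had 1.06 ± 0.472 TPM. Mitochondrial aminoacyl-tRNA synthetases, which charge transfer RNAs, had 14 of 20 genes detected and a median of 3.90 ± 0.675 TPM. Fars2 (25.5 ± 6.16 TPM), Cars2 (20.1 ± 6.23 TPM) and Hars2 (14.4 ± 4.35 TPM) were the highest and Pars2 the lowest at 0.753 ± 0.389 TPM.

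Genes that transcribe mitochondrial DNA were low, with 5 of 7 detected and a median of 2.53 ± 0.158 TPM. The polymerase Polrmt led at 6.32 ± 2.61 TPM, ahead of Mterf1a at 4.73 ± 0.989 TPM and the elongation factor Tefm at 3.20 ± 1.32 TPM, and Mterf2 was lowest at 0.650 ± 0.555 TPM. Regulators of mitochondrial biogenesis were higher, with 9 of 10 detected and a median of 14.6 ± 1.55 TPM. Esrra, a nuclear receptor, had 52.7 ± 6.00 TPM, the coactivator Pprc1 27.4 ± 6.74 TPM and Gabpb2, a partner of the ETS factor GABPA, 21.2 ± 2.79 TPM. The coactivator Ppargc1a was listed at 0 in each library of the gene table and had 2.27 ± 0.0631 TPM in the read-based table. The mitochondrial ribosomal RNA mt-Rnr1 had 162, 11.8 and 21.6 TPM and mt-Rnr2 had 30.4, 5.21 and 6.69 TPM, so both were highest in replicate 1. Ribosomal RNA was depleted before sequencing, so these 2 levels also depend on the depletion.

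Replicate 1 was the library in which the mitochondrial ribosomal protein genes were most often lowest. Among the 69 detected genes, 35 (50.7%) had their lowest TPM in replicate 1, against 40.8% of detected protein-coding genes. In replicate 3, 32 of 69 (46.4%) had their highest TPM, against 34.4%, and in replicate 1 17 of 69 (24.6%) did, against 38.2%. Replicate 1 had the fewest counts, the most starting RNA, the highest mt-Rnr1 level and the largest protein-coding share of TPM, and the part of these in the result was not tested. The libraries were nevertheless alike in rank. Over the 78 genes Spearman's rho was 0.825 between replicates 1 and 2, 0.846 between 1 and 3, and 0.912 between 2 and 3. These correlations run across genes, and genes are no replicates. Over 9670 protein-coding genes they were 0.944, 0.957 and 0.973.

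The SD of log2(TPM + 1) between libraries was ranked over genes averaging 1 TPM or more. It was largest for Mrpl48 (0.96), Mrpl28 (0.94), Mrps26 (0.93), Mrps15 (0.87) and Mrps18c (0.71). The median was 0.234 over all 78 genes. Mrps28, left out of the ranking with a mean of 0.917 TPM, had 0.77. Mrpl28 had 1.27, 5.80 and 6.26 TPM from 12, 66 and 51 counts. Mrps26, a protein that the bacterial ribosome lacks, had 1.64, 7.51 and 6.56 TPM from 26, 128 and 96 counts. Mrpl28, Mrps26 and Mrps15 were lowest in replicate 1. Mrpl48 (6.81, 3.49 and 15.8 TPM) and Mrps18c were lowest in replicate 2 and highest in replicate 3 instead. In the edgeR fit of counts over all genes, the median biological coefficient of variation between libraries was 0.255 over the 71 of these genes that passed the count filter, and 0.25 over 10308 protein-coding genes. It was 0.193 without replicate 1, against 0.176 for protein-coding genes, and the values without the other libraries were larger than the value with all 3.

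Much of the RNA of these genes was assigned to transcripts that are not annotated as protein-coding. Whether the reads behind these shares came from RNA still being spliced or from finished transcripts was not tested. In the alignment-based transcript table, 48.9%, 48.1% and 46.0% of their summed TPM lay on transcripts annotated as protein-coding (mean 47.7%) and 40.3 ± 0.650% on transcripts with a retained intron (SD, n = 3). A further 9.84 ± 1.33% lay on processed transcripts, which have no open reading frame annotated, and 2.16 ± 0.826% on transcripts marked for nonsense-mediated decay. Summed over all protein-coding genes, the shares were 47.6 ± 2.35% protein-coding and 39.7 ± 2.12% retained intron. For these 2 classes the mitochondrial ribosomal protein genes differed from protein-coding genes by less than the spread between libraries. Their nonsense-mediated decay share, 1.38%, 2.07% and 3.03%, was below that of protein-coding genes, 3.83%, 4.03% and 3.93%, in each library. The read-based table gave other sums. There, 48.9 ± 2.15% lay on protein-coding transcripts (44.0 ± 1.64% over protein-coding genes), 27.1 ± 1.21% on retained-intron transcripts (35.1 ± 0.913%) and 20.5 ± 0.833% on processed transcripts (15.9 ± 0.633%). The summed retained-intron share was thus close to that of protein-coding genes in one table and lower in the other.

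Gene by gene, the retained-intron share was above the protein-coding median. It was computed for the 47 detected genes that have a transcript of this kind. Their median share was 57.8%, 53.3% and 51.2% in replicates 1, 2 and 3 (54.1 ± 3.36%, SD, n = 3). Over 5883 protein-coding genes it was 50.8%, 46.4% and 47.0% (48.0 ± 2.41%), and over 65 cytosolic ribosomal protein genes 58.0 ± 2.66%. The mitochondrial ribosomal protein genes were above protein-coding genes in each library, and below the cytosolic ribosomal protein genes in each library. Among detected genes with several transcripts, the leading transcript was a retained-intron transcript for 32 of 67 (47.8%), against 33.5% of protein-coding genes. It was not protein-coding for 37 of 67 (55.2%), against 42.9%. The leading transcript was taken from mean TPM in the alignment-based table. Over all 78 genes it was the same in each library for 44, and the same in the read-based table for 42. In the read-based transcript table the median retained-intron share was 45.5% for these genes and 45.9% for protein-coding genes, so the difference from protein-coding genes was not seen there.

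The highest retained-intron shares were those of Mrps26 (91.2 ± 8.88%), Mrps5 (89.4 ± 7.55%), Mrpl21 (87.8 ± 8.71%), Mrpl53 (85.2 ± 23.8%) and Mrpl23 (82.5 ± 3.92%). For Mrpl53 the share rests on 8, 26 and 19 counts. The lowest shares among the 47 genes were those of Mrpl43 (9.69 ± 16.8%), Mrpl9 (11.1 ± 9.69%), Mrpl48 (22.0 ± 10.2%), Mrpl39 (24.3 ± 16.4%) and Mrpl47 (25.3 ± 5.63%). All of these are shares in the alignment-based table. In the read-based table the genes named as highest had 46.1%, 70.6%, 80.5%, 71.7% and 66.1%, in the same order. Those named as lowest had 5.88%, 41.8%, 1.43%, 31.4% and 8.76%. The median over the 47 genes was 45.5% there, so Mrps26 and Mrpl9 did not stand out. Mrps9 had 62.7 ± 5.50% on retained-intron and 8.87 ± 3.00% on protein-coding transcripts, whereas Mrpl24 had 40.9 ± 6.96% and 59.1 ± 6.96%. Among the retained-intron transcripts of Mrps9, Mrps9-205 alone held 10.1, 8.54 and 9.37 TPM. For Mrpl24, the retained-intron transcript Mrpl24-206 held 18.6, 14.7 and 16.7 TPM and the protein-coding Mrpl24-203 held 10.5, 16.7 and 21.4 TPM, so the leading transcript changed between replicate 1 and the others.

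**Figure D3:**
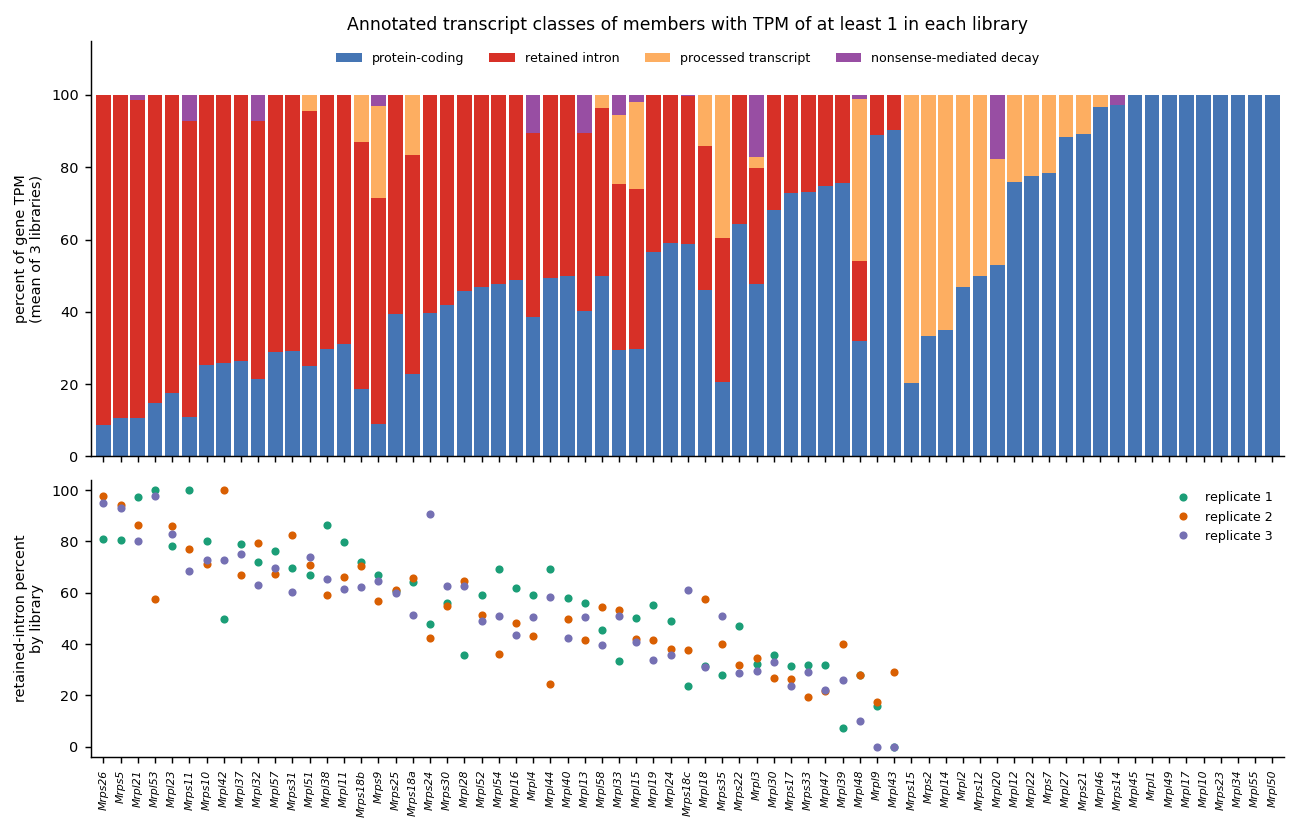
Upper panel, percent of each gene's TPM on each class of annotated transcript (mean of 3 libraries, stacked to 100%) for the 69 detected genes; lower panel, the retained-intron percent in replicates 1 to 3 for the 47 genes that have such a transcript. In the alignment-based transcript table shown here, Mrps26 and Mrps5 stand at the high end and Mrpl43 and Mrpl9 at the low end. The points of 1 gene are often far apart.

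The 2 deposited quantifications differed for a number of these genes. The read-based table, which was made from the reads with no alignment step stated, gave higher levels for 65 of the 78 genes, with a median ratio to the gene table of 1.49 (1.29 over 9670 protein-coding genes averaging 1 TPM or more). Of the 75 mitochondrial ribosomal protein genes that averaged 1 TPM or more, 20 (26.7%) were over 2-fold higher in it, against 18.5% of protein-coding genes, and 0 were over 2-fold lower, against 0.290%. More than 5-fold higher were 4 of 75 (5.33%), against 2.24%. Across the 78 genes the tables gave Spearman's rho of 0.785, as a description across genes of the same libraries. A level from either table is thus uncertain by this much for the genes named next.

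Mrpl20, a homologue of a bacterial assembly protein of the large subunit, had 4.79, 4.39 and 5.22 TPM in the gene table and 82.2, 41.2 and 53.2 TPM in the read-based table, a ratio of 12.3. A single transcript, Mrpl20-202, made up 90.9% of this gap. It is a protein-coding transcript of 442 bases in 4 exons at chr4:155803652-155807477, with 0.590 TPM in 1 table and 49.7 TPM in the other. Mrpl48 had 75.7, 64.2 and 74.3 TPM in the read-based table, a ratio of 8.20. Here the processed transcript Mrpl48-203, of 706 bases in 2 exons at chr7:100597826-100607638, made up 93.7% of the gap. It drew 578, 953 and 817 estimated counts in the read-based table and 13.0, 9.00 and 76.0 expected counts in the other. Of its bases, 53 lie in exons of Rab6a, a gene on the other strand with 26.5 ± 5.69 TPM. The read-based level of Mrpl48 would make it the highest of the 78 genes, and the gene table gives it rank 15.

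Mrpl35 (ratio 7.44), Mrpl42 (5.79) and Mrpl41 (4.95) had the next largest ratios. Mrpl35 had 1.16 ± 0.244 TPM in the gene table and 8.63 TPM in the other, and its transcript Mrpl35-201, of 3721 bases, held 96.7% of the gap. For Mrpl42 the retained-intron transcript Mrpl42-204, of 3277 bases, held 92.7%. At the other end, Mrps12 (0.668), Mrps34 (0.671), Mrps2 (0.718), Mrpl34 (0.764) and Mrps30 (0.773) were lower in the read-based table. The sources used here do not state whether reads were counted by strand, so reads of overlapping genes on the 2 strands cannot be told apart with certainty.

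**Figure D4:**
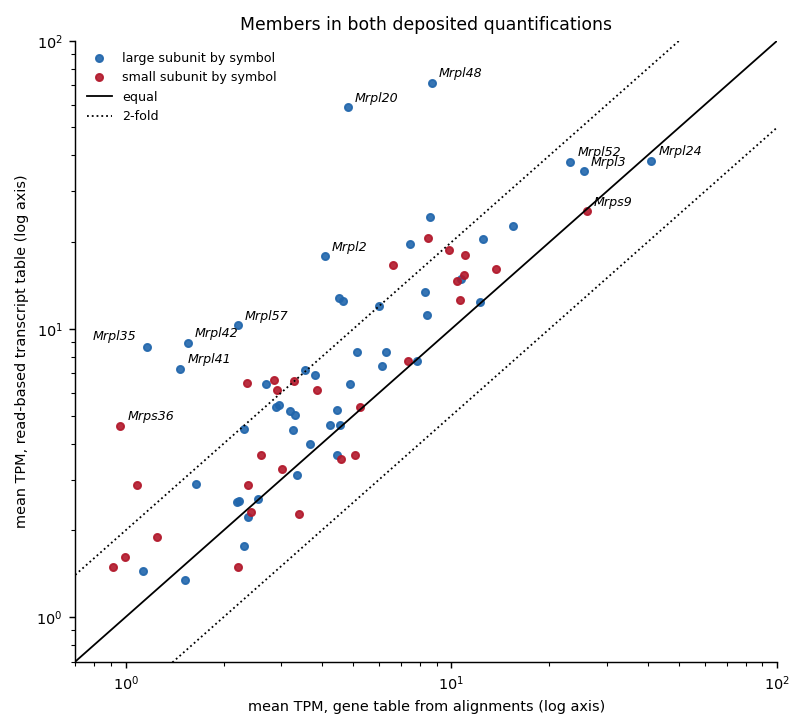
Mean TPM over 3 libraries of each of the 78 genes in the gene table (x axis, log) and in the read-based transcript table (y axis, log), coloured by subunit, with lines at equal levels and at 2-fold. Mrpl20 and Mrpl48 lie far above the line at 58.8 and 71.4 TPM, Mrpl24 and Mrps9 lie on it, and no gene lies below the lower 2-fold line.

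Near-identical copies elsewhere in the genome were also searched for, and their effect on the levels was not tested. Protein-coding transcripts were aligned to annotated transcripts of other genes, at 95% identity over at least 200 bases. Transcripts of other classes, such as Mrpl48-203 and Mrpl42-204, were not searched for copies. Pseudogene copies were found for 19 of the 78 genes (24.4%), 24 copies in all, against 10.2% of protein-coding genes. Among detected genes it was 16 of 69 (23.2%), against 11.0%. Matches on either strand were counted, and that of Mrps25 to the pseudogene Gm42933 was on the opposite strand. A mean TPM of at least 1 was reached by 2 copies, Gm6997, a copy of Mrpl22, at 1.69 TPM and Gm6238, a copy of Mrpl30, at 1.77 TPM. Of the 5 pseudogenes named after these genes, Mrps36-ps2 had 0, 1.28 and 1.60 TPM and Mrpl23-ps1 0, 1.03 and 1.22 TPM, and the rest were listed at 0. Mrps36 itself had 1.04, 1.38 and 0.460 TPM, above Mrps36-ps2 in replicates 1 and 2 and below it in replicate 3, and that pseudogene drew 0, 2 and 2 counts. Among the 21 genes that differed by over 2-fold between tables, 7 had a copy, and among the 57 others 12 did. Mrps26, one of the most variable genes, also matched 25 other genes over 200 to 211 bases, of which 12 had a mean TPM of at least 10; whether their reads bear on its level was not tested.

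The genes lay on 17 chromosomes, with 11 on chromosome 11, and many stood close to another gene. Another protein-coding gene started within 1000 bases in the opposite direction for 18 of 78 genes (23.1%), against 6.78% of protein-coding genes. Among detected genes it was 15 of 69 (21.7%), against 11.2%. A gene on the other strand overlapped 36 of 78 (46.2%), against 36.6%. The pairs named in this paragraph were chosen after their values were seen. Mrps12, a protein of the decoding centre, shares its start region with Sars2, the mitochondrial seryl-tRNA synthetase, and both were low, at 3.40 ± 1.06 and 3.26 ± 1.40 TPM. Mrpl43 overlaps Twnk, the helicase of mitochondrial DNA, on the other strand, at 3.26 ± 0.558 and 1.24 ± 0.367 TPM. Mrps11 and Mrpl46 overlap each other, at 3.01 ± 1.13 and 2.19 ± 0.634 TPM. In each of these pairs both genes serve the mitochondrion.

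Neighbours that start divergently were not at matched levels as a rule. In 8 of the 18 pairs the neighbour was higher than the mitochondrial ribosomal protein gene in all 3 libraries, in 8 it was lower in all 3, and in 2 the order differed between libraries. Mrpl49 had 5.14 ± 0.826 TPM and its neighbour Fau, which encodes a cytosolic ribosomal protein, 30.8 ± 9.38 TPM. Mrpl41 had 1.47 ± 0.636 TPM beside Pnpla7 with 44.5 ± 14.0 TPM. Conversely, Mrps5 had 13.7 ± 1.82 TPM beside Zfp661 with 0.760 ± 0.397 TPM, and Mrpl37 had 12.2 ± 2.39 TPM beside Cyb5rl with 1.66 ± 0.912 TPM. Mrps34 lies on the other strand from Mapk8ip3, which had 144, 149 and 158 TPM, and Mrps34 had 2.21 ± 1.23 TPM. Whether reads of Mapk8ip3 bear on the Mrps34 value was not tested.

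The promoters of these genes held short sequences that are bound by known regulators of mitochondrial genes. GABPA, an ETS factor, and NRF1 are textbook activators of nuclear genes for mitochondrial proteins, and YY1 is a zinc-finger factor with sites near many start sites. Promoter windows of 300 bases, from 250 before to 50 after the start (RefSeq, GRCm38.p6), were matched for 69 of the 78 genes by symbol; Mrpl4, Mrpl13, Mrpl15, Mrpl19, Mrpl38, Mrpl54, Mrps28, Mrps34 and Mrps35 had none. These 69 are not the same as the 69 detected genes. Mrpl35, Mrpl36, Mrpl41, Mrps6, Mrps16, Mrps27 and Mrps36 have a window and were not detected. The ETS sequence CCGGAAG, on either strand, was found for 26 of 69 genes (37.7%), against 13.3% of 16519 protein-coding genes and 23.9% of 7254 detected ones. The NRF1 sequence, GCGC and TGCGC around any 1 base, was found for 13 (18.8%), against 7.44% and 13.0%. The YY1 sequence AAGATGG was found for 13 (18.8%), against 7.26% and 9.43%. ETS or NRF1 was found for 35 of 69 (50.7%), against 33.7% of detected genes, and both for 4 (5.80%, against 3.20%). These are matches of letters, not measured sites, and matches may overlap one another.

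Other sequences were found about as often as, or less often than, in detected protein-coding genes, searched on both strands. CCAAT was found for 39.1% of the 69 genes and 42.4% of detected genes, and GGGCGG, a GC box, for 49.3% and 69.6%. The E-box CACGTG was found for 7.25% and 12.3%, and TATAAA for 7.25% and 8.37%. The interferon-response sequence, GAAA on both sides of any 2 bases, was found for 3 genes (4.35%, against 4.26%), and the kappaB sequence, GGGA and TTTCC around any 1 base, for 0 of 69, against 0.593%. No difference in these shares was tested. Levels on chromatin overlapped between genes with and without a match. The median of mean TPM was 3.96 over the 26 genes with the ETS sequence and 4.08 over the 43 without, and 4.66 with and 3.35 without the NRF1 sequence.

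**Figure D5:**
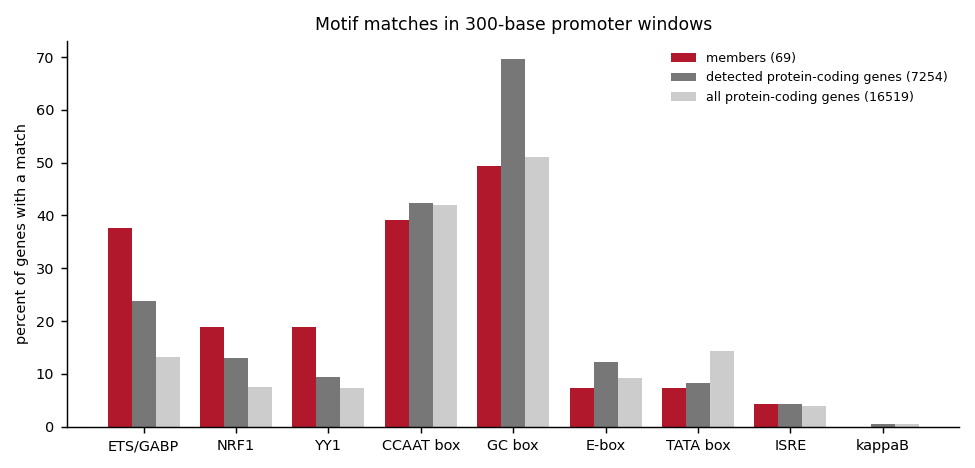
Percent of genes with at least 1 match to each of 9 short sequences in the 300-base promoter window, for the 69 mitochondrial ribosomal protein genes with a window (red), detected protein-coding genes (dark grey) and all protein-coding genes (light grey). The red bar is the tallest of its group for ETS/GABP (37.7%), NRF1 (18.8%) and YY1 (18.8%). It is also tallest, by little, for the interferon-response sequence (ISRE, 4.35%, against 4.26% of detected genes). It is not the tallest for the others, among them the GC box (49.3%).

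The 120 bases before the start of 6 of these genes are shown because they cover genes of high and low level with ETS or NRF1 matches close to the start, and none overlaps an annotated exon. They were chosen after their values were seen. Each is written 5′ to 3′ on the strand of the gene, with matches to the ETS or NRF1 sequence, or their reverse complements, in capitals. Mrps9 (26.0 TPM) is at chr1:42851113-42851232, Mrpl52 (23.2 TPM) at chr14:54426789-54426908, Mrpl45 (7.48 TPM) at chr11:97315596-97315715, Mrps22 (3.29 TPM) at chr9:98601680-98601799 on the minus strand, Mrpl58 (2.55 TPM) at chr11:115403632-115403751 and Mrpl34 (2.30 TPM) at chr8:71464806-71464925.
Mrps9: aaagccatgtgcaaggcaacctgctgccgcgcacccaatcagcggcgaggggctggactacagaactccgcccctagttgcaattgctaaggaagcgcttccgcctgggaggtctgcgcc
Mrpl52: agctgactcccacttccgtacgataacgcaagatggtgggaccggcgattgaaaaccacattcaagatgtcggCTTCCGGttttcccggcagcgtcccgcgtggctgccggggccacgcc
Mrpl45: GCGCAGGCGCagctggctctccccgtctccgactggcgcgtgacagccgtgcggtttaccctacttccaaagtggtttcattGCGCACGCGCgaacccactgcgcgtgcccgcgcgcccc
Mrps22: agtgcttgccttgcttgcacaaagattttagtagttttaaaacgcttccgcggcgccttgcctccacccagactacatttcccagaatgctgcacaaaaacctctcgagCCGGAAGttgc
Mrpl58: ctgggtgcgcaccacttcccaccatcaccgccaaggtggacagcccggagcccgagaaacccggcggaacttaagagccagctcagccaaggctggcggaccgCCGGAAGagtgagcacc
Mrpl34: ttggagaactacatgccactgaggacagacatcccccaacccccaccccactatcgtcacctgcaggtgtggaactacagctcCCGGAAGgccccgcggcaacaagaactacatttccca
Mrpl52, Mrps22, Mrpl58 and Mrpl34 each carry an ETS match in this stretch, while their levels on chromatin ran from 2.30 to 23.2 TPM. Mrpl45 carries 2 NRF1 matches here. Mrps9 has no whole match in the stretch, but an NRF1 match begins 5 bases before its start and runs past the end of what is shown, and it is counted among the 13 genes with that sequence.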

How the data were processed

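The authors deposited, for each of the 3 libraries, tables of genes and of transcripts quantified from transcriptome alignments, with expected counts and TPM, and a second table of transcripts quantified from the reads, with estimated counts and TPM, per the file headers and labels. The assembly was mm10 with GENCODE M21; aligner and quantifier: not given in the sources used here. Rows that are no annotated gene held 1.37%, 0.337% and 0.456% of counts and were left out.

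The members, gene lists and tests were chosen with earlier results of these data known. All 55450 gene identifiers matched the annotation. Levels are TPM, and lists were compared within each library as medians of log2(TPM + 1). Transcript shares came from transcript TPM. Expected counts were rounded for edgeR 4.0.16 (TMM factors, intercept-only dispersion) and DESeq2 1.42.0 (size factors) in R 4.3.3. Python 3.11.15, pandas 2.3.3, numpy 2.4.6, SciPy 1.17.1, matplotlib 3.10.9 and BLAST 2.17.0 did the rest. The steps were tested on simulated data, where median but not single-gene dispersions were recovered, so only medians are given. No 2 libraries agreed within sampling noise (chi-square per degree of freedom 29.1 to 81.9). Named genes were the 6 highest and 6 lowest of each subunit and the 5 most variable among genes averaging 1 TPM or more. The 5 with the largest and smallest ratio between tables were also named, as were the 5 highest and lowest retained-intron shares. Mrps18a, Mrps18b, Mrps18c, Mrps30, Mrps36, Mrpl12 and Mrpl58 were always named. Each related list gave its 3 highest genes and its lowest. The highest cytosolic ribosomal protein gene and the highest marker of each cell type were added. Other genes are named as chosen after their values were seen.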

Additional observations from a re-analysis of the deposited data

How the results depend on the processing

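The direction of the difference between bacterial homologues and mitochondria-specific genes, and of that between mitochondrial and cytosolic ribosomal protein genes, was the same under each alternative run. The first was 0.71 with a pseudocount of 0.1, 0.44 in the read-based table, 0.49 on TMM-scaled and on DESeq2-scaled counts, 0.46 with Mrpl47, Mrpl55 and Mrps28 moved, and 0.54 to 0.61 without 1 replicate. The second was -2.28, -1.76, -1.43 and -1.43 under the same settings, -1.82 as a difference of means, and -2.18 to -1.99 without 1 replicate. The large minus small subunit difference changed sign, to -0.05 over genes averaging 1 TPM or more, to -0.02 with either count scaling and to -0.01 without replicate 1 (range -0.01 to 0.18 without 1 replicate); it was 0.26 in the read-based table, 0.14 with a pseudocount of 0.1, 0.12 as a difference of means and 0.16 with the genes reassigned. The cause was not tested. Detected genes numbered 75 at a TPM of at least 0.5, 24 at a TPM of at least 5, 75 in the read-based table and 70 to 73 without 1 replicate. With TPM rescaled to protein-coding genes the medians of all, large and small subunit genes were 13.3, 13.4 and 12.4 TPM, and 6.54, 7.35 and 5.97 TPM when read-based; without 1 replicate they ran from 3.83 to 4.08, 3.89 to 4.17 and 3.40 to 4.06 TPM. The retained-intron share was 45.5% in the read-based table and 52.2% to 55.5% without 1 replicate. Genes differing between tables numbered 39 at 1.5-fold. Leaving out each replicate was chosen after seeing the data for 2 results: the coefficient of variation was then 0.193 to 0.341, and 19 to 22 genes differed between tables. No paired analysis was possible because the 3 libraries form 1 group. Counting error limits the genes with under 10 counts.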
